A study of Mus musculus with 4 samples.

Results

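The subject here is the transforming growth factor beta (TGF-beta) pathway at its core: the ligands Tgfb1, Tgfb2 and Tgfb3, the receptors Tgfbr1, Tgfbr2 and Tgfbr3, and the intracellular Smad2, Smad3 and Smad7. They were taken by gene symbol from a table of 17915 coding genes, and all 9 were in it and passed the filter on low counts. The study recorded whether the alpha smooth muscle actin gene had been active in a mouse lung endothelial cell after tamoxifen. It compared the RNA of cells with and without that record. Both groups carried the alleles Cdh5-CreER, aSMA-LSL-Dre and NR1, were given 5 doses of tamoxifen, and underwent transverse aortic constriction (TAC) with 6 weeks until study, an operation that loads the heart by narrowing the aorta. Cre recombinase was thus driven from Cdh5, an endothelial gene, and Dre from the alpha smooth muscle actin gene. LSL names a stop before Dre that Cre removes, so activity of the actin gene before tamoxifen was not recorded. The ZsGreen+ group (2 libraries) held sorted cells marked as endothelial. The tdTomato+ group (2 libraries) held sorted cells in which the actin gene had been active at least once after that removal. There is no group without TAC among the samples used here, so both groups describe the operated lung, and the ages and sexes of the mice are not given in the labels. The titles call the libraries biological replicates, but do not say whether each came from its own mouse or from pooled mice, so each p-value reflects the spread among the 4 libraries alone.

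TGF-beta ligands are secreted in a latent form and act once they are freed from it. A freed ligand brings together the type II receptor encoded by Tgfbr2 and the type I receptor encoded by Tgfbr1, while betaglycan, encoded by Tgfbr3, presents ligand to them. The type I receptor phosphorylates Smad2 and Smad3, which enter the nucleus with Smad4 and act on target genes, among them Smad7, whose product inhibits the receptor. In endothelium the pathway is known for its part in vessel development and in the gain of mesenchymal features, and endothelial cells also carry the type I receptor ALK1 (Acvrl1) and the co-receptor endoglin (Eng). The readout here is RNA only, so ligand release and Smad phosphorylation were not measured.

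Smad3 and Tgfbr1 were the genes among the 9 with both a higher level in each tdTomato+ library and an unadjusted p under 0.05. Their start regions are shown for that reason, from 250 bases before to 50 after the RefSeq start, on the gene's strand of GRCm38.p6. Smad3 lies at chr9:63757945-63758244 (minus strand) and Tgfbr1 at chr4:47352972-47353271 (plus strand). Capitals mark GGGCGG, the GC box bound by Sp1 family factors.
Smad3: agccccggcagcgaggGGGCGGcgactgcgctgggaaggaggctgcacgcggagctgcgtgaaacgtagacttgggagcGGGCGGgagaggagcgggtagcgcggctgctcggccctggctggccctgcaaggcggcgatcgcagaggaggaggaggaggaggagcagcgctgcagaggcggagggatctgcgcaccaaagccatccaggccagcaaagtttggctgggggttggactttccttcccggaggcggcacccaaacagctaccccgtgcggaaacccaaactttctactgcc
Tgfbr1: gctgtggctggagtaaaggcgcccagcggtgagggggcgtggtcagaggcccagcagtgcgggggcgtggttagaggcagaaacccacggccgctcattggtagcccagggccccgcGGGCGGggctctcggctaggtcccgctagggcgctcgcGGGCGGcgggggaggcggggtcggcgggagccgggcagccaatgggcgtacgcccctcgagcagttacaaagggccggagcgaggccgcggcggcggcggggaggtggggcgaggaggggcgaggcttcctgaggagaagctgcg
Each window held 2 GC boxes, none of which overlapped another motif searched. GC boxes stood in 35.7% of 32851 RefSeq windows of 300 bases. CAGAC, found in Smad binding elements, and TATAAA were not found in either window on either strand, and were found in 49.6% and 13.6% of all windows. The 2 windows were 67.7% and 74.7% G or C.

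The libraries held between 17050673 and 18574737 counts over coding genes. Acta2, the gene the recorder reads, stood at 304 and 528 CPM (the count over the scaled library size) in tdTomato+ and at 87.6 and 82.9 CPM in ZsGreen+ libraries. Endothelial markers were abundant in every library. The 10 marker genes summed to 9565 to 9710 CPM in tdTomato+ and 10800 to 12560 CPM in ZsGreen+ cells, without overlap. In both tdTomato+ libraries 1 of the 10 was higher and 5 were lower. Markers of other cells were also read; over all 13177 genes tested, 19.9% were higher and 18.2% lower in both tdTomato+ libraries. Of 12 fibroblast markers 7 were higher in both tdTomato+ libraries, with sums of 261.7 and 479.8 against 120.4 and 148.3 CPM, led by Col1a1 and Col3a1. Macrophage and monocyte markers, led by Lyz2 and Chil3, were higher in both tdTomato+ libraries for 5 of 12 and summed to 5494 and 2627 against 3040 and 716 CPM, which overlapped. Alveolar epithelial markers, led by Sftpc and Sftpb, were higher in both for 7 of 10 and lower for 1, and summed to 399.9 and 484.8 against 266.8 and 150.9 CPM. Smooth muscle markers, led by Tagln and Myl9, were higher in both tdTomato+ libraries for 4 of 7 tested and lower for none, with a median log2 fold change of 0.63, and summed to 1471 and 2009 against 1437 and 1024 CPM; Myocd and Synpo2 were too low to be tested and each at 0 in 1 ZsGreen+ library. Of 7 lymphatic endothelial markers 6 were lower in both tdTomato+ libraries, with a median log2 fold change of -2.03, and edgeR called 3 of them lower. Their sums, led by Lyve1 and Flt4, overlapped at 713 and 1005 against 942 and 1231 CPM. Pericyte markers, led by Pdgfrb and Postn, summed to 10.12 to 15.17 CPM in all 4 libraries. Of 8 tested, 2 were higher and 3 lower in both tdTomato+ libraries. Lymphocyte markers, led by Ptprc and Cd79a, summed to at most 40.4 CPM, with 2 of 7 tested higher in both and 0 lower. No marker in these lists was at 0 in all 4 libraries. In bulk samples, fewer cells of a type and less RNA per cell cannot be told apart.

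Tgfb1 was by far the most abundant of the 9 genes when levels were set per transcript length. In TPM, the authors' length-scaled unit, with the range over 4 libraries, Tgfb1 stood at 135.81 to 220.09 and all its values lay above those of every other gene of the 9. Tgfbr2 (46.28 to 60.85 TPM) and Smad7 (40.96 to 65.58 TPM) came next and overlapped each other. Tgfbr3 followed at 13.11 to 19.95 TPM, apart from the genes above and below it. Smad2 (7.9 to 10.87 TPM), Tgfb2 (5.51 to 10.48 TPM), Tgfb3 (3.98 to 11.91 TPM), Smad3 (2.9 to 8.88 TPM) and Tgfbr1 (2.25 to 5.63 TPM) formed the low end, where each overlapped its neighbour in the order. Tgfbr2, the type II receptor RNA, stood at 10.75 to 20.91 times Tgfbr1, the type I receptor RNA, within the same library.

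**Figure D1:**
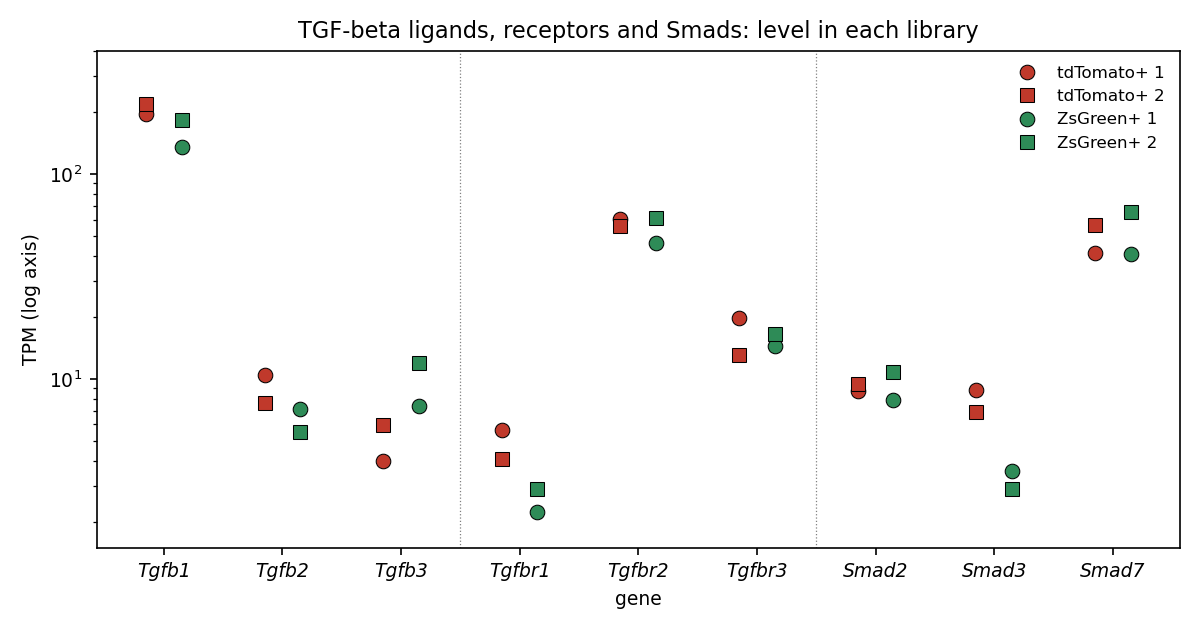
Level of each of the 9 genes in each library, in TPM on a log axis; red symbols are tdTomato+ and green symbols ZsGreen+ libraries, circles replicate 1 and squares replicate 2, and dotted lines part ligands, receptors and Smads. Tgfb1 is highest at 135.81 to 220.09 TPM, and the red and green symbols stand apart most clearly for Smad3 (8.88 and 6.94 against 3.56 and 2.90 TPM).

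Between the groups, none of the 9 genes passed edgeR's quasi-likelihood test at an adjusted p under 0.05, which called 0.304% of the 13177 genes tested. At an unadjusted p under 0.05 there were 3 of the 9 (Smad3, Tgfb3 and Tgfbr1), 2 higher and 1 lower, against 8.77% of all genes (5.62% higher and 3.15% lower). By other tools, DESeq2 called 1 of the 9 (Smad3), against 2.44% of the genes it gave an adjusted p, and limma-voom none, against 0.25%. Libraries of both groups did not overlap in CPM for 4 of the 9 genes, 3 higher and 1 lower in tdTomato+ cells, against 38.1% of all genes tested (19.9% higher and 18.2% lower), so that share is close to the background. Fold changes are given as log2 of tdTomato+ over ZsGreen+ with the standard error (SE), and intervals are 95% intervals for single genes, not adjusted for the number of genes.

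Among the ligands, Tgfb1, the main isoform in most tissues, stood at 239.9 and 283 CPM in tdTomato+ and at 206 and 236 CPM in ZsGreen+ libraries. The tdTomato+ libraries were higher without overlap, but the nearest values of the groups were 239.9 and 236 CPM. The log2 fold change came to 0.24 (SE 0.19, edgeR adjusted p = 0.833), with an interval from 0.864-fold to 1.62-fold. Tgfb1 (NCBI Gene 21803) lies on chromosome 7 of GRCm38, from 25687002 to 25705077. Tgfb2, the isoform that depends most on betaglycan for receptor binding, stood at 33.2 and 25.4 against 27.7 and 18.5 CPM, and the groups overlapped (log2 fold change 0.34, SE 0.27, edgeR adjusted p = 0.835). Its interval ran from 0.808-fold to 1.99-fold. In TPM the Tgfb2 groups did not overlap (10.48 and 7.65 against 7.10 and 5.51). TPM placed the median of all genes 0.148 to 0.155 higher in tdTomato+ cells on the log2 scale than CPM did.

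Tgfb3 went the other way. It stood at 7.81 and 12.3 CPM in tdTomato+ libraries, from 142 and 234 counts, and at 17.9 and 24.5 CPM in ZsGreen+ libraries, from 283 and 448 counts. Both tdTomato+ values were below both ZsGreen+ values, and the group means were 10.05 ± 3.16 and 21.2 ± 4.69 CPM (SD, n = 2 each). The log2 fold change came to -1.08 (SE 0.32, interval -1.84 to -0.32, edgeR adjusted p = 0.338), so the difference did not pass the test over all genes. Of the 7 lymphatic markers 6 were lower in the same libraries, 3 of them by edgeR's call, and their part in the Tgfb3 difference was not tested. Tgfb3 shares 257 and 163 of its 3383 exonic bases in GENCODE M21 with the models Gm48008 and Gm37804 on the opposite strand, and reads there cannot be told apart without strand.

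Among the receptors, Tgfbr1, the type I kinase that phosphorylates Smad2 and Smad3, stood at 19.2 and 14.5 CPM in tdTomato+ and at 9.43 and 10.4 CPM in ZsGreen+ libraries, with no overlap. The log2 fold change came to 0.76 (SE 0.28, interval 0.11 to 1.42, edgeR adjusted p = 0.47). Fibroblast markers (7 of 12) and smooth muscle markers (4 of 7 tested) were higher in the same libraries. So were 7 of 10 alveolar epithelial markers, with 1 lower. The part of these cells in the Tgfbr1 difference was not tested. Tgfbr1 (NCBI Gene 21812) lies on chromosome 4, from 47353222 to 47414926. Tgfbr2, the ligand-binding type II kinase, stood at 169 and 163 against 160.2 and 179 CPM. Its groups overlapped and the log2 fold change came to -0.03 (SE 0.17, edgeR adjusted p = 0.986), with an interval from 0.743-fold to 1.298-fold. Tgfbr3, the betaglycan co-receptor, stood at 72.3 and 49.9 against 64.7 and 63.4 CPM, so the tdTomato+ libraries lay on either side of the ZsGreen+ ones (log2 fold change -0.07, SE 0.22, edgeR adjusted p = 0.974).

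Smad3, one of the 2 receptor-activated Smads of the pathway, had the smallest p of the 9 genes. It stood at 26.2 and 20.8 CPM in tdTomato+ libraries, from 477 and 397 counts, and at 12.1 and 8.82 CPM in ZsGreen+ libraries, from 192 and 161 counts. Both tdTomato+ values exceeded both ZsGreen+ values, and the means were 23.5 ± 3.82 and 10.5 ± 2.35 CPM (SD, n = 2 each). The log2 fold change came to 1.17 (SE 0.28, interval 0.51 to 1.82), or 2.25-fold with an interval from 1.43-fold to 3.54-fold. By unadjusted p it ranked 248 of 13177 genes, and the edgeR adjusted p was 0.216. DESeq2 placed it past the threshold with a log2 fold change of 1.154 (DESeq2 adjusted p = 0.0345). In GRCm38, Smad3 (NCBI Gene 17127) lies on chromosome 9 from 63646766 to 63757994. No run of 31 bases in its coding transcripts occurred in a transcript of another gene in GENCODE M21, Smad2 included. The share of such runs found in other genes was highest for Tgfbr3, at 4.285%, all in the overlapping model Gm43422, and at most 1.422% for the other 8 genes. Fibroblast, alveolar epithelial and 5 of 12 macrophage and monocyte markers were higher in the same libraries, as given above, and their part in the Smad3 difference was not tested.

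Smad2, the partner of Smad3, stood at 46.3 and 52.4 CPM in tdTomato+ and at 51.4 and 60.2 CPM in ZsGreen+ libraries, which overlapped. The log2 fold change came to -0.18 (SE 0.19, interval -0.62 to 0.27, edgeR adjusted p = 0.888). Smad7, the inhibitory Smad and itself a target of the pathway, stood at 91.7 and 134 against 115 and 157 CPM, with overlap (log2 fold change -0.27, SE 0.25, interval -0.86 to 0.32, edgeR adjusted p = 0.859). For both genes the 2 libraries of a group differed more than, or about as much as, the group means did.

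**Figure D2:**
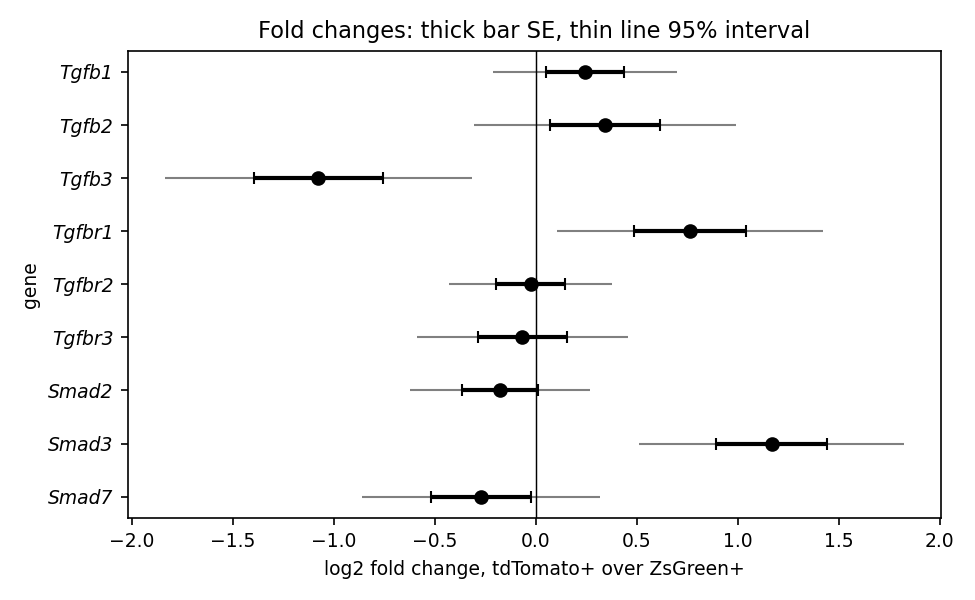
Log2 fold change of tdTomato+ over ZsGreen+ cells for the 9 genes from edgeR; points are estimates, thick bars 1 SE and thin lines 95% intervals. The intervals of Smad3 (0.51 to 1.82), Tgfbr1 (0.11 to 1.42) and Tgfb3 (-1.84 to -0.32) lie off 0, and none of the 9 passed the test adjusted over all genes.

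Ratios within a library do not depend on how libraries are scaled to each other, and several of them did not overlap between the groups. In CPM the groups did not overlap for 38.1% of all single genes tested. The ratios share genes and are not separate results, and Smad2 and Smad7 by themselves overlapped between the groups in CPM. Smad3 RNA was at 1.02 and 0.734 times Smad2 RNA (in TPM) in tdTomato+ libraries and at 0.451 and 0.267 times in ZsGreen+ libraries. Smad2 thus made up 49.6% and 57.7% of the summed Smad2 and Smad3 TPM in tdTomato+ cells and 68.9% and 78.9% in ZsGreen+ cells, without overlap. Tgfbr1 made up 6.54% and 5.58% of the TPM of the 3 receptors in tdTomato+ and 3.57% and 3.62% in ZsGreen+ libraries. Tgfb1 dominated the ligands in every library, with 93.1% and 94.2% of their TPM in tdTomato+ and 90.4% and 91.3% in ZsGreen+ libraries, also without overlap. The share of Tgfb3 was 1.89% and 2.55% in tdTomato+ and 4.90% and 5.92% in ZsGreen+ libraries, while that of Tgfb2 overlapped between groups at 2.74% to 4.97%. Smad7 TPM was 2.35 and 3.43 times the summed Smad2 and Smad3 TPM in tdTomato+ and 3.57 and 4.76 times in ZsGreen+ libraries. With 2 libraries against 2, the exact permutation test of a single ratio cannot reach the threshold, so these ratios are given as values only. The part of other cell types in these ratios was not tested.

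**Figure D3:**
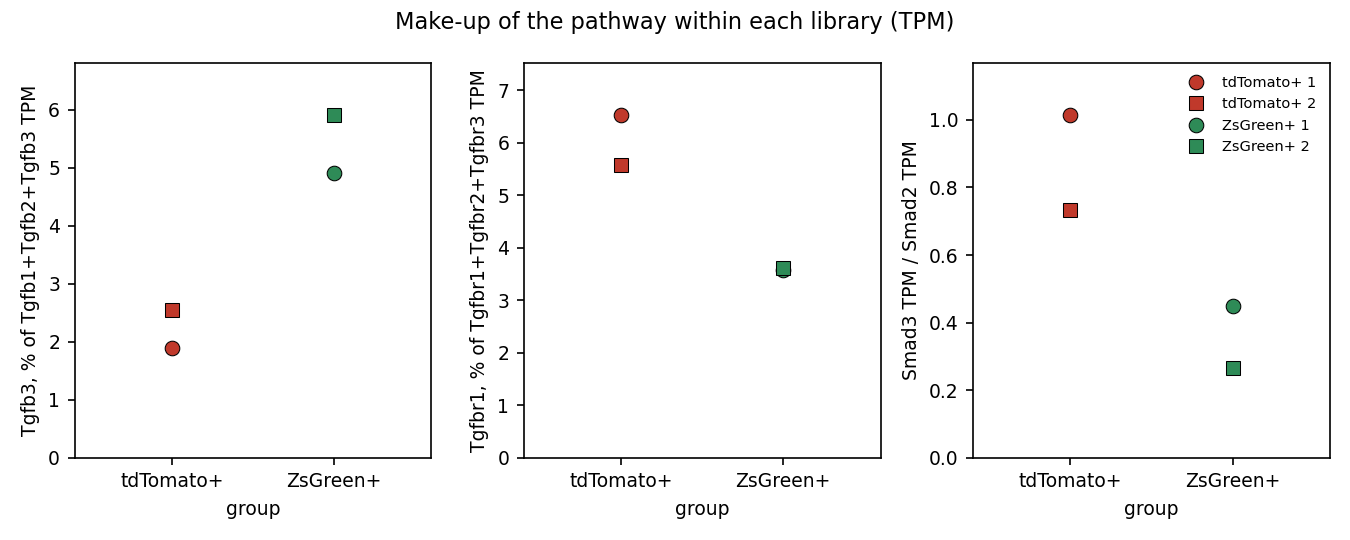
Make-up of the pathway in each library: the share of Tgfb3 in the TPM of the 3 ligands, the share of Tgfbr1 in the TPM of the 3 receptors, and the ratio of Smad3 to Smad2 TPM, by group; red symbols are tdTomato+ and green symbols ZsGreen+ libraries. The groups do not overlap in any of the 3 panels, with Smad3 to Smad2 at 1.02 and 0.734 against 0.451 and 0.267. In CPM the groups do not overlap for 38.1% of all single genes tested.

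The other genes of the pathway came from 7 lists that hold 104 genes beside the 9, of which 97 were tested. edgeR called 2 of the 97 higher (Acta2 and Fn1) and none lower, against 0.167% and 0.137% of all genes tested. Acta2 is the gene whose activation sorted the cells, so its call is no independent evidence. The median log2 fold change came to 0.00 over the 97 genes and -0.01 over all genes tested. Both calls were in the list of TGF-beta induced genes.

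In the list of genes that hold the latent ligand or help to free it, 9 of 17 tested genes were higher in both tdTomato+ libraries and 3 lower, against 19.9% and 18.2% of all genes, with a median log2 fold change of 0.68 and no call by edgeR. At an unadjusted p under 0.05 there were 7 higher and 1 lower, against 5.62% and 3.15% of all genes. Bgn, the proteoglycan biglycan, which binds TGF-beta, stood at 871 and 1309 against 419 and 306 CPM (log2 fold change 1.59, SE 0.28, edgeR adjusted p = 0.112). Ltbp4, a latent TGF-beta binding protein that ties the latent complex to elastic fibres, stood at 1193 and 1521 against 661 and 432 CPM (1.31, SE 0.27, edgeR adjusted p = 0.156). Fbn1, fibrillin 1, the microfibril protein to which such complexes bind, stood at 37.5 and 53.4 against 18.7 and 21.5 CPM (1.18, SE 0.24, edgeR adjusted p = 0.162). The groups did not overlap for any of these 3 genes. DESeq2 called all 3, with adjusted p of 1.421e-06, 0.0001245 and 0.006888. With no filter on low counts edgeR called Bgn (adjusted p = 0.0203) and Ltbp4 (0.046) but not Fbn1 (0.0691). On TPM, limma on log2(TPM + 1) with the filter called Bgn (adjusted p = 0.0455) but not Ltbp4 (0.0532) or Fbn1 (0.312). Limma on log2(TPM + 0.1) called none of the 3. Without ZsGreen+ replicate 1 the log2 fold changes of Bgn and Ltbp4 were 1.83 and 1.65. Fibroblast markers were higher in the same libraries, and Dcn, decorin, is in both lists; their part in these values was not tested. The integrin subunits Itgb6 and Itgb8, whose products free latent TGF-beta on other cell types, were too low to be tested.

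Among 14 co-receptors and regulators of the receptors edgeR called none, with 2 at an unadjusted p under 0.05, against 8.77% of all genes tested. In both tdTomato+ libraries 2 were higher and 3 lower, against 19.9% and 18.2% of all genes. The median log2 fold change came to -0.05. Dab2, an endocytic adaptor that binds the receptors and Smads, stood at 100.3 and 83.1 against 54.5 and 51.9 CPM, without overlap (0.79, SE 0.18, edgeR adjusted p = 0.206), and was called by DESeq2 (adjusted p = 0.0433). Acvrl1, the endothelial type I receptor ALK1, stood at 1135 and 1152 against 1818 and 1424 CPM, lower without overlap (-0.50, SE 0.21, edgeR adjusted p = 0.558). Per length, Acvrl1 RNA was 95.96 and 128.6 times Tgfbr1 RNA in tdTomato+ libraries and 310.9 and 222.2 times in ZsGreen+ libraries. Smurf2, a ubiquitin ligase recruited by Smad7 to the receptor, stood at 57.7 and 53.3 against 65.6 and 81.7 CPM (-0.41, SE 0.19, edgeR adjusted p = 0.626).

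Among 15 tested Smad partners and repressors edgeR called none, with 1 at an unadjusted p under 0.05, against 8.77% of all genes tested. In both tdTomato+ libraries 5 were higher and 1 lower, against 19.9% and 18.2% of all genes, and the median was 0.07. The Smad4 groups overlapped in TPM, at 9.4 and 9.76 in tdTomato+ against 9.71 and 19.3 in ZsGreen+ libraries. In CPM Smad4, the common partner of the activated Smads, stood at 42.7 and 46.6 against 54.7 and 92.0, lower without overlap (-0.72, SE 0.27, edgeR adjusted p = 0.487). The value rested on ZsGreen+ libraries that differed: it was -0.29 without ZsGreen+ replicate 2 (edgeR adjusted p = 0.487) and -1.04, past the threshold, without ZsGreen+ replicate 1 (edgeR adjusted p = 0.0343). Foxo1, a transcription factor that can act with Smads, stood at 190.5 and 190.5 against 152 and 137 CPM (0.40, SE 0.17, edgeR adjusted p = 0.572). Tgif1, a corepressor, overlapped between groups at 110.3 and 76.3 against 80.5 and 52.1 CPM (0.49, SE 0.27, edgeR adjusted p = 0.732).

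Of 22 genes known to be induced by TGF-beta, Acta2 and Fn1 rose, 12 were higher and 4 lower in both tdTomato+ libraries, against 19.9% and 18.2% of all genes, and the median log2 fold change came to 0.47. Acta2 is among the 12 and is the gene whose activation sorted the cells, so it is no independent evidence on the pathway. At an unadjusted p under 0.05, 8 of the 22, Acta2 among them, were higher and 2 lower. The shares over all genes were 5.62% and 3.15%. Log2 fold changes in the list ran from -1.35 to 2.29. Fn1, fibronectin, stood at 227 and 199 against 73.4 and 48.6 CPM (log2 fold change 1.80, SE 0.24, edgeR adjusted p = 0.0467). The Fn1 call ended without tdTomato+ replicate 1 (edgeR adjusted p = 0.12), tdTomato+ replicate 2 (0.186) or ZsGreen+ replicate 2 (0.0553), and the Acta2 call without tdTomato+ replicate 2 (0.126) or ZsGreen+ replicate 2 (0.111). DESeq2, limma-voom and edgeR with no filter on low counts also called both genes. On the deposited TPM, limma on log2(TPM + 1) with the filter called Fn1 (adjusted p = 0.0463) and Acta2 (0.0354). Limma on log2(TPM + 0.1) called Acta2 (adjusted p = 0.04) but not Fn1 (0.0505). Limma on log2(TPM + 1) without a filter called neither gene (adjusted p = 0.185 for each). Lox, lysyl oxidase, which crosslinks collagen and elastin, stood at 12 and 17.6 against 2.21 and 4.00 CPM (2.25, SE 0.41, edgeR adjusted p = 0.126). Col3a1, a fibrillar collagen, stood at 58.8 and 117.7 against 24.4 and 31.9 CPM (1.65, SE 0.34, edgeR adjusted p = 0.164), and is also one of the 12 fibroblast markers. Ccn2, connective tissue growth factor, stood at 744 and 718 against 415 and 393 CPM (0.86, SE 0.18, edgeR adjusted p = 0.175). DESeq2 called these 3, with adjusted p of 0.0001962 for Lox, 0.0003518 for Col3a1 and 0.001268 for Ccn2. With no filter on low counts edgeR called Lox (adjusted p = 0.0343) and Col3a1 (0.0423) but not Ccn2 (0.104). Fibroblast markers (7 of 12) and smooth muscle markers (4 of 7 tested) were higher in the same libraries, the lists share Col1a1, Col1a2, Col3a1, Tagln and Cnn1 with this one, and the part of those cells in its values was not tested. Pmepa1, a target that feeds back on the pathway and was singled out once values were known, overlapped between groups, with 22.9 and 28.5 against 23.2 and 25.9 CPM (0.07, SE 0.22, edgeR adjusted p = 0.974).

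**Figure D4:**
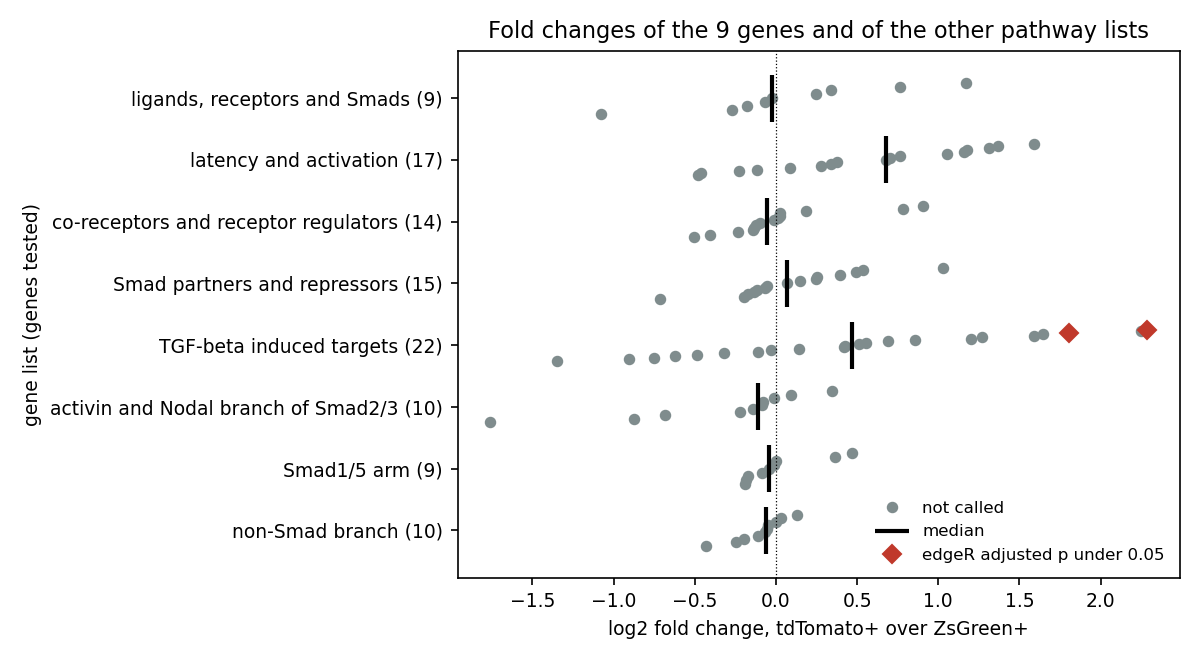
Log2 fold change of tdTomato+ over ZsGreen+ cells for each tested gene of the 9 and of the 7 other pathway lists; grey circles are genes not called, red diamonds genes called by edgeR at an adjusted p under 0.05, and black bars list medians. Both diamonds (Fn1 at 1.80 and Acta2 at 2.29) are in the list of TGF-beta induced genes. Acta2 is the gene whose activation sorted the cells. The list of latency and activation has the highest median, 0.68.

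Activins and related ligands act on Smad2 and Smad3 through other receptors. Of 10 tested genes of that branch edgeR called none, and none was at an unadjusted p under 0.05, against 8.77% of all genes tested. The groups overlapped for 9, and 1 was lower in both tdTomato+ libraries, against 18.2% of all genes. Inhba, the activin A subunit, stood at 3.85 and 2.47 against 5.63 and 5.97 CPM (-0.88, SE 0.42, edgeR adjusted p = 0.641). Inhbb, the activin B subunit, was more abundant at 37 and 73.7 against 49.2 and 79.5 CPM (-0.22, SE 0.37, edgeR adjusted p = 0.941). Fst, follistatin, which binds activins, was low at 1.49 and 2.10 against 0.949 and 1.86 CPM (0.34, SE 0.63, edgeR adjusted p = 0.946).

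The Smad1/5 arm, which carries BMP signals, and the non-Smad branch held no edgeR call. Neither held a gene at an unadjusted p under 0.05, against 8.77% of all genes tested. Their median log2 fold changes were -0.04 over 9 and -0.06 over 10 tested genes. Id2, a target of BMP signals, stood at 67.2 and 60.7 against 52.8 and 39.7 CPM (0.47, SE 0.21, edgeR adjusted p = 0.593). Smad1 stood at 162 and 167 against 187 and 188 CPM (-0.19, SE 0.17, edgeR adjusted p = 0.854), and Bmpr2, the type II BMP receptor, at 167 and 146 against 145 and 211 CPM (-0.19, SE 0.22, edgeR adjusted p = 0.903). In the non-Smad branch Rhoa, a small GTPase of the cytoskeleton, stood at 710.5 and 747 against 828 and 898 CPM (-0.24, SE 0.19, edgeR adjusted p = 0.827). Pard6a, a polarity protein bound to the type I receptor, and Tab2, an adaptor of the kinase TAK1, had log2 fold changes of -0.43 (SE 0.36) and -0.11 (SE 0.20), with edgeR adjusted p of 0.841 and 0.944.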

How the data were processed

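Sorted lung endothelial cells gave RNA that was amplified over the whole transcriptome before library preparation, per the labels' protocols. The protocols name no molecular identifiers; counts may hold copies of one molecule. RSEM 1.3.1, DESeq2 1.4.5 and the builds mm10 and GRCm38 are named per the submitters' processing notes; aligner and strand setting: not given in the sources used here. Per gene the authors deposited estimated counts, TPM, FPKM and a normalized count signal; the last 2 were read but used in no comparison. Between 16.2% and 17.9% of estimated counts are not whole, and counts were rounded for tests.

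edgeR 4.0.16 (R 4.3.3) compared 2 tdTomato+ with 2 ZsGreen+ libraries (groups and numbers from the titles) by its two-sided quasi-likelihood F-test, with TMM factors and filterByExpr (minimum count 10), on 13177 of 17915 genes. A gene was called at p under 0.05 after Benjamini-Hochberg adjustment over all genes tested. CPM uses TMM-scaled library sizes, SE is the size of the log2 fold change divided by the root of the F statistic, and 95% intervals use the t distribution with the moderated degrees of freedom (6.87). The test was first tested on simulated data, with the same spread for every gene and changes set in genes at 5 CPM or more. It called 16.7% of 2-fold changes, 94% of 4-fold changes and 0.0539% of unchanged genes, so most 2-fold changes were missed. Tried as alternatives were DESeq2 1.42.0, limma-voom (limma 3.58.1), upper quartile and RLE factors, no filter and a filter at 5 CPM in 2 libraries, leaving out each library, a replicate block, and limma with trend on log2 of TPM plus 1 or 0.1 over genes at 1 TPM or more in 2 libraries, or with no filter.

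The 9 genes, the lists and the tests were chosen with earlier results of these data known. Named are the 9 genes, in each pathway list the called genes and the 3 others of smallest p among those averaging 1 CPM or more, in each marker list the 2 most abundant, and the 3 genes of most like pattern to Smad3. Platelet and erythroid markers, led by Hba-a1 and Pf4, summed to 39.9 and 48.4 CPM in tdTomato+ and 62.2 and 51.7 CPM in ZsGreen+ libraries. The 9 symbols matched RefSeq GRCm38.p6 identifiers, 5 of them with a promoter window. Mstn and Ccl21a of the lists are not analysed here.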

Additional observations from a re-analysis of the deposited data

How the results depend on the processing

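With 2 libraries a group, single libraries and the tool decided many counts. The count of genes called was 40; it was 330 with DESeq2, 128 with no filter on low counts, 22 with limma on log2(TPM + 0.1), 0 with limma on log2(TPM + 1) and no filter, and 4 to 304 when 1 library was left out (304 without ZsGreen+ replicate 1, 26 without ZsGreen+ replicate 2, 17 without tdTomato+ replicate 1, 4 without tdTomato+ replicate 2). Of the 9 genes 0 were called, also without any 1 library, with limma on TPM and with no filter; DESeq2 called 1 (Smad3). Of the 97 other pathway genes tested 2 were called (Acta2 and Fn1), against 0.304% of all genes. DESeq2 called 11 of the other pathway genes, against 2.44% of the genes it gave an adjusted p. With no filter on low counts edgeR called 6, against 0.764% of genes. On TPM, limma on log2(TPM + 1) with the filter called 3, against 0.259% of genes (31 genes). Limma on log2(TPM + 0.1) called 1, against 0.184%, and limma on log2(TPM + 1) with no filter called 0. The number called also moved when 1 library was left out. The causes were not tested.

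The labels do not say that equal replicate numbers share a mouse or a batch. With 2 pairs, the deviations of same-numbered libraries from their group means correlated at 0.455, which is 1 value and no check of pairing. With a replicate block edgeR called 934 genes, 7.09% of those tested (679 higher, 255 lower), 2 of the 9 genes (Smad3, adjusted p = 0.0007532, and Tgfb3, adjusted p = 0.002859) and 20 of the other pathway genes, from a fit with 1 residual degree of freedom per gene.

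The log2 fold change of Smad3 lay between 0.95 and 1.42 over the 14 alternatives, that of Tgfb3 between -1.42 and -0.79 and that of Tgfbr1 between 0.54 and 0.97, and those of Tgfb1, Tgfb2, Smad2 and Smad7 also kept their sign. Tgfbr2 and Tgfbr3, near 0, changed sign. Tgfbr2 was at 0.02 with upper quartile factors, 0.0065 with the filter at 5 CPM, 0.13 with limma on log2(TPM + 1), with or without a filter (0.1266 in both), and 0.1288 with limma on log2(TPM + 0.1), and at -0.10 to 0.052 when 1 library was left out. Tgfbr3 was at 0.06 with limma on log2(TPM + 1), with or without a filter (0.0578 in both), 0.0597 with limma on log2(TPM + 0.1), and at -0.36 to 0.20 when 1 library was left out. TPM moved the median of all genes by 0.146 to 0.155. Tab2 changed sign to 0.021 with limma on log2(TPM + 1), with or without a filter, and to 0.0236 with log2(TPM + 0.1). When 1 library was left out, Inhbb ranged from -0.78 to 0.19, Fst from -0.0525 to 0.91, Bmpr2 from -0.43 to 0.10 and Pard6a from -0.82 to 0.10.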

Other observations

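The genes whose pattern over the 4 libraries was most like that of Smad3 were Masp1, Zfp488 and Tnfrsf21, by Euclidean distance of log2 CPM centred over the libraries, among 8986 genes averaging 10 CPM or more. Masp1, a serine protease of the complement system, stood at 60.7 and 49.2 CPM in tdTomato+ and at 31.2 and 20.3 CPM in ZsGreen+ libraries (distance 0.128). Zfp488, a zinc finger protein, stood at 24.5 and 17.1 CPM against 11.6 and 8.44 CPM (distance 0.188). Tnfrsf21, death receptor 6, stood at 23.4 and 15.3 CPM against 10.3 and 6.85 CPM (distance 0.219). With 4 libraries this is a description only, and none of the 3 was called by edgeR (adjusted p = 0.218, 0.324 and 0.319). The 3 were picked by likeness to Smad3 in these same libraries, so their p-values are no separate result.

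In 4 of the 9 genes the libraries numbered 1 stood on one side of the libraries numbered 2 in both groups, as they did for 36.3% of all genes tested. Tgfb2 and Tgfbr3 were higher in both libraries numbered 1, and Smad2 and Smad7 in both numbered 2. For Smad7 these were 91.7 and 115 CPM against 134 and 157 CPM. What the numbers share is not given in the labels.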
